A study of Mus musculus with 86 samples.

Results

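The subject is a set of 148 probes, of 20175 counted in mouse back skin, whose level in the PanCK-positive epidermis was at most 0.4 times its starting value 24 h after ultraviolet B (UVB) exposure but still above 0.6 times that value at 6 h. PanCK is pan-cytokeratin, the stain that marks epithelial cells. The members were chosen on summed counts scaled to 1000000 a sum (CPM) and averaged over 3 mice: a 0 h level of at least 150 CPM in PanCK epidermis (680 probes), less than 3 times the 0 h level in PanCK deep dermis (570 left), a 6 h level above 0.6 times 0 h (492 left), a 24 h level of at most 0.4 times 0 h (151 left), and a fall in each mouse (148 left). The 344 probes that met the first 3 limits and are not members serve as the reference and are called the other eligible probes. The members are thus 0.734% of all probes and 30.1% of the eligible ones. A probe identifier is not paired with a gene in the tables used here, and the members therefore stand under their identifiers, with no gene, cell type or sequence named.

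The skin came from female C57BL/6 mice of 12 to 16 weeks, wild type and shaved on the back, which received 500 mJ/cm2 of UVB (290 to 320 nm) under isoflurane. Biopsies were taken at 0, 6 and 24 h, and the labels give the mouse numbers 208, 210 and 219 at each time. Transcripts were counted by GeoMx digital spatial profiling, in which light frees barcodes from marked parts of a section, the segments, for sequencing. Epidermis and deep dermis each gave segments stained for PanCK and for CD45, the common leukocyte antigen, and the adipose layer gave CD45 segments. The labels name no unexposed skin at 6 or 24 h, so UVB and other changes over time, such as handling or the biopsy, cannot be told apart.

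The epidermis is a layered epithelium in which keratinocytes divide at the base, differentiate as they move outward and are shed at the surface. It absorbs most of the UVB that reaches the skin. UVB damages DNA in keratinocytes, and damaged bases block transcription until they are repaired; the epidermis also releases signals that draw leukocytes into the skin. In the deep dermis, PanCK marks the epithelium of hair follicles and glands, which is continuous with the epidermis but lies farther from the light.

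The 85 tissue segments were summed by mouse, compartment and time into 44 sums of 17076 to 433425 counts, with 3 mice a group, or 2 for adipose at 6 h. PanCK epidermis had 200430 to 433425 counts a sum at 0 h and 86613 to 111738 at 24 h. There the 100 most abundant probes held 19.3% of counts at 0 h and 9.75% at 24 h in the mean, and the 5000 scarcest probes of the deeper layers, called floor probes here, held 9.38% and 16.5%. In CD45 epidermis the floor share went from 12.9% to 16.6%, and in PanCK deep dermis it was 10.1% at 0 h and 10.0% at 24 h. The sources used here do not say whether floor probes are negative controls. Their part in the results below was not tested. A lower level in a segment can come from fewer cells of a type or from less RNA per cell, and these cannot be told apart here.

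In PanCK epidermis the 148 members together took 8.06%, 7.31% and 6.94% of the counts of mice 208, 210 and 219 at 0 h. At 6 h they took 5.45%, 5.89% and 6.02%. At 24 h they took 2.311%, 2.301% and 2.399%. The mice differed by little at 24 h and the 3 times did not overlap, with means of 7.44 ± 0.571%, 5.79 ± 0.298% and 2.34 ± 0.0541% (SD, n = 3 mice). Single segments kept the same order: 8 segments at 0 h held 6.39% to 8.79% of their counts on members, and 6 segments at 24 h held 2.00% to 2.71%. These values chose the members and are a description, with no test.

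**Figure D1:**
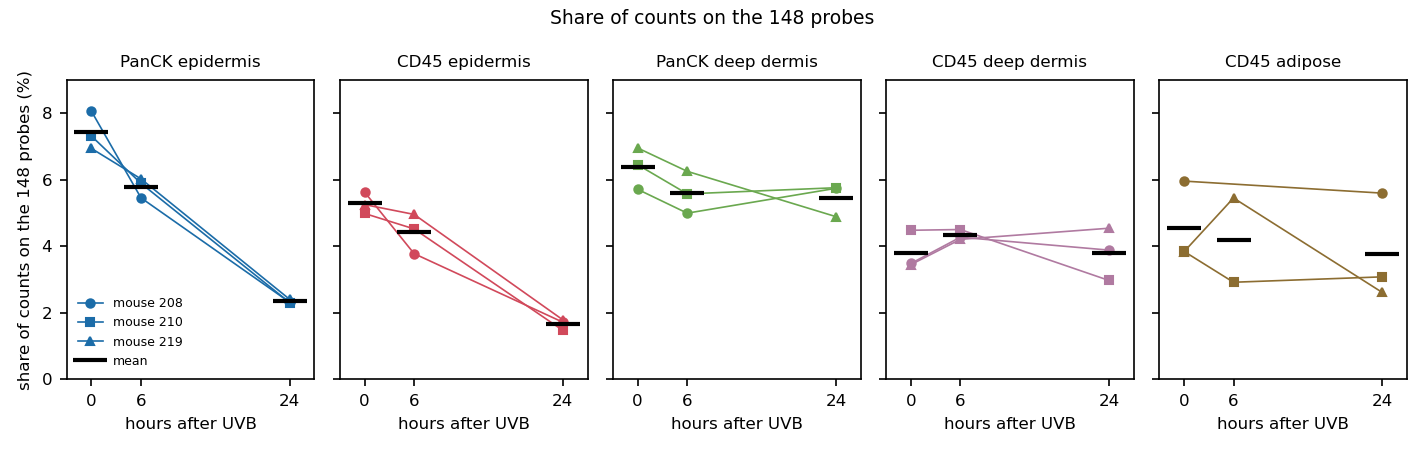
Share of counts on the 148 probes (y axis, percent) at 0, 6 and 24 h (x axis) in each compartment. Symbols joined by lines are the mice and black bars are means over mice. The lines of both epidermal compartments end near 2% at 24 h, at 2.34% and 1.65% in the mean, and those of the 3 deeper compartments stay between 2.61% and 6.95% at every time.

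CD45 epidermis, whose counts the rule did not use, gave nearly the same course. The members' share was 5.63%, 4.98% and 5.25% in mice 208, 210 and 219 at 0 h. It was 3.77%, 4.52% and 4.95% at 6 h and 1.71%, 1.47% and 1.78% at 24 h. Values at 24 h were 0.294 to 0.340 times those of the same mouse at 0 h, against 0.287 to 0.346 times in PanCK epidermis. In the deeper compartments no such course was seen. The 24 h share was 0.703 to 1.01 times the 0 h share in PanCK deep dermis, 0.663 to 1.32 times in CD45 deep dermis and 0.681 to 0.939 times in adipose, and in each of these compartments the mice overlapped between the times.

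Among themselves the members differed 36-fold in starting level and little in the size of their fall. The rule capped the ratio of 24 h to 0 h at 0.4, which narrowed the range of falls by selection. The 0 h mean in PanCK epidermis ran from 153 to 5499.5 CPM with a median of 282 CPM. Of the 148 members, 16 were at 1000 CPM or more and 78 under 300 CPM. The ratio of 24 h to 0 h had a median of 0.333 and a range of 0.203 to 0.399, with 11 members at 0.25 or less. Near the limit, RTS0068682 and RTS0065965 lay inside at 0.398 and 0.399, and RTS0068744 and RTS0068163 outside at 0.4003 and 0.4007. The requirement of a fall in each mouse removed 3 probes, all of which were higher at 24 h in mouse 210. A probe that reaches the floor cannot show a deeper fall. At 24 h, 40 to 44 members a mouse stood at less than 2 times the floor probes' mean level. At 0 h that mean was 18.8 CPM, and at 24 h 32.9 CPM. With that mean subtracted, a step added after seeing the data, the median ratio was 0.234 for the members and 0.461 for the other eligible probes, in place of 0.333 and 0.547.

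At 6 h most members stood between their 0 h and 24 h levels. The 6 h ratio, which the rule held above 0.6, had a median of 0.747 in PanCK epidermis, and 96 of the 148 members were under 0.8 times 0 h. At 6 h, 91 members were lower than 0 h in every mouse and 4 were higher in every mouse, and 12 had a mean at or above the 0 h mean. Of the 344 other eligible probes 90 were lower and 56 higher in every mouse, with a median 6 h ratio of 0.943. These values share the 0 h level that chose the members, so the gap between the lists is shaped by that choice. In this comparison edgeR, DESeq2 and limma each called 0 members; 0.315% of tested probes were called lower and 0.206% higher by edgeR, and at an unadjusted p under 0.05 edgeR had 36 members lower and 0 higher. From 6 to 24 h the members' median ratio was 0.419. The edgeR fit called 148 of the 148 lower at 24 h than at 0 h and 0 higher, where 10.4% of 9206 tested probes were called lower and 5.27% higher, and nothing is read from this count since the rule used the contrast.

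The 2 members with the highest starting level were RTS0079340 and RTS0069819. RTS0079340 stood at 6047, 5687 and 4764 CPM in PanCK epidermis of mice 208, 210 and 219 at 0 h and at 1663, 1342 and 1651 CPM at 24 h. RTS0069819 stood at 4685, 4661 and 3455 CPM at 0 h and at 1143, 1199 and 866 CPM at 24 h. Both were lower at 24 h in every mouse, as the rule required, and with no overlap, as for all 148 members. They parted in CD45 epidermis: RTS0079340 was at 4405, 4419 and 4177 CPM at 0 h and at 1828, 1456 and 1573 CPM at 24 h, a log2 fold change of -0.87 ± 0.27 (SE). RTS0069819 was there at 2821, 1836 and 2059 CPM at 0 h and at 64.4, 97.1 and 153 CPM at 24 h, a log2 fold change of -3.79 ± 0.35. The quasi-likelihood F test of edgeR, adjusted by Benjamini-Hochberg over all tested probes (n = 3 mice), gave adjusted p-values of 0.0121 and 3.70e-08. In PanCK deep dermis neither was called, with log2 fold changes of -0.03 ± 0.23 and -0.28 ± 0.29.

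In CD45 epidermis, 69 of the 130 members that passed the filter on low counts fell by 24 h (53.1%) and 0 rose. Of all 1307 tested probes, 19.3% were called lower and 22.6% higher, and of 325 tested other eligible probes 81 were lower and 41 higher. At an unadjusted p under 0.05, 79 members were lower and 1 higher; DESeq2 called 46 lower and 0 higher, and limma 68 and 0. The 69 fell by a median log2 fold change of -1.47, 2.77-fold, within -3.79 to -0.79, and 16 of them fell at least 4-fold. The median log2 fold change was -1.06 over the 130 and -0.10 over all tested probes. A probe is called here at an adjusted p under 0.05 in edgeR's fit of the compartment's 3 times with the mouse as a block. A fitted fold is relative to the tested probes, whose share of counts went from 30.3% at 0 h to 21.1% at 24 h. A fitted fall is therefore smaller than the fall in CPM, and a fitted rise is larger than the rise in CPM.

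In CPM, which leaves no member out, the median ratio of 24 h to 0 h in CD45 epidermis was 0.350 for the 148 members and 0.524 for the 344 other eligible probes. In every mouse 130 members were lower at 24 h and 0 were higher, and for 120 the lower 24 h values did not overlap those of 0 h. Of the other eligible probes 229 were lower and 39 higher in every mouse, and 200 were lower with no overlap. Over all 20175 probes these shares were 11.4%, 26.2% and 6.45%. At 24 h, between 63 and 91 members a mouse were under 2 times the mean floor level there, against 3 in each mouse at 0 h. The number of calls moved with mouse 210, whose 24 h sum held 422250 counts against 77684 and 65492 in mice 208 and 219: without mouse 210, 33 members were called lower. Scaled to the floor probes, which moved the median of all tested probes from -0.10 to -1.05, 122 were called lower. PanCK and CD45 segments were cut from the same regions of interest, per the labels' protocols, so the compartments share biopsies. How much epithelial RNA the CD45 segments held was not tested, since no marker can be named.

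**Figure D2:**
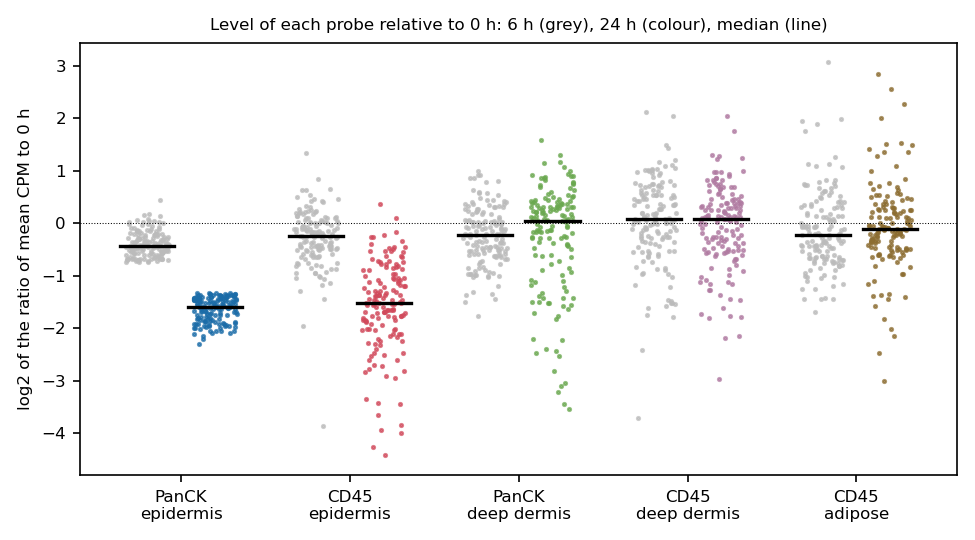
Log2 of each member's mean CPM at 6 h (grey) and 24 h (colour) over its 0 h mean, by compartment. Points are probes and black lines medians; 2 members listed at 0 in adipose at 6 h are not drawn. At 24 h the members lie far below 0 in both epidermal compartments, at median ratios of 0.333 and 0.350, and spread to both sides of 0 in the other 3.

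By p-value the leading falls in CD45 epidermis were RTS0069819, above, and RTS0064745. RTS0064745 stood at 1468, 1189 and 2094 CPM in mice 208, 210 and 219 at 0 h, at 1432, 2197 and 3142 CPM at 6 h and at 142, 82.9 and 107 CPM at 24 h. At 6 h mice 210 and 219 were above their 0 h values and mouse 208 was slightly below. The log2 fold change from 0 to 6 h, 0.50, was not called. The 24 h values lay far below those of both earlier times. Its log2 fold change from 0 to 24 h was -3.26 ± 0.34, adjusted p = 1.93e-07 in edgeR's quasi-likelihood test, n = 3, and it was called under all 12 alternatives, with adjusted p-values of 1.27e-14 to 7.81e-05. In PanCK epidermis it went from 1188 ± 300 to 452 ± 219 CPM, and in PanCK deep dermis mouse 208 stood apart at 24 h, at 1633 CPM against 137 and 559 CPM.

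The 2 members with the smallest p among those with a positive change in CD45 epidermis, RTS0080065 and RTS0074527, were not called. RTS0080065 was at 49.8, 59.7 and 82.4 CPM at 0 h, at 134, 147 and 207 CPM at 6 h and at 51.5, 109 and 45.8 CPM at 24 h, with a log2 fold change from 0 to 24 h of 1.00 ± 0.43 and adjusted p = 0.0659 in edgeR's test. RTS0074527 was at 216, 142 and 153 CPM at 0 h and at 142, 211 and 107 CPM at 24 h, with 0.55 ± 0.36 and 0.238. The 24 h value of mouse 210 alone lay above the 0 h range for RTS0080065, and no 24 h value did for RTS0074527. Over the alternatives the adjusted p ran from 0.0245 to 0.99 and from 0.0471 to 0.896. Their direction and size moved with the scaling. Scaled to the floor probes, the log2 fold change of RTS0080065 was 0.0047 and that of RTS0074527 turned to -0.42. Without the filter they were 0.04 and -0.38, and by limma 0.13 and -0.21.

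The median CPM ratio of 24 h to 0 h in CD45 epidermis was lower in the classes with a higher level before exposure. Of the 16 members at 1000 CPM or more in PanCK epidermis at 0 h, 13 were called lower in CD45 epidermis and the median CPM ratio was 0.224. Of 54 members at 300 to 1000 CPM, 38 were called lower, with a median ratio of 0.288. Of 78 members under 300 CPM, 60 were tested and 18 called lower, with a median ratio of 0.430. Over all tested probes in CD45 epidermis, 19.3% were called lower and 22.6% higher. The other eligible probes were not split by level. Scarcer members have fewer counts behind them and lie nearer the floor, so the classes differ in what could be called. They also differ in how far a ratio could fall, since the floor probes' mean there rose from 25.7 to 33.2 CPM over the 24 h. The part of the floor in the order of the ratios was not tested. In PanCK deep dermis the order of the 3 member classes was reversed, with median ratios of 1.14, 1.07 and 0.937. There 3 of 16, 9 of 54 and 24 of 74 tested members were called lower, and 2, 2 and 0 higher. The shares over all tested probes there were 12.5% and 6.05%.

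At 6 h few members were called in any compartment. In CD45 epidermis 1 member was lower at 6 h than at 0 h and 0 were higher, where 1.15% and 0.383% of all tested probes were; at an unadjusted p under 0.05, 12 were lower and 2 higher, DESeq2 called 1 and 0, and limma 0 and 0. The member, RTS0063606, is named after its values were seen. It stood at 1236, 128 and 153 CPM at 0 h in mice 208, 210 and 219 and at 44.7, 18.4 and 41.3 CPM at 6 h, with 2 counts in each 6 h sum, so the high value of mouse 208 carries much of its fitted fold. Without mouse 208, and without mouse 219, no member was called. From 6 to 24 h, 41 members fell in CD45 epidermis and 0 rose, against 12.2% and 17.2% of all tested probes; 54 were lower and 2 higher at an unadjusted p under 0.05, and DESeq2 called 29 and 0. Without mouse 210 the count was 16, without mouse 219 it was 22, and scaled to the floor probes it was 91. The comparisons with 0 h share the 0 h sums.

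In PanCK deep dermis the members went different ways. At 24 h against 0 h, 36 of 144 tested members fell (25%) and 4 rose (2.78%), where 12.5% of 2563 tested probes were called lower and 6.05% higher. Of 338 tested other eligible probes, 40 fell and 25 rose. The 36 fell by a median log2 fold change of -1.78, 3.44-fold, within -3.63 to -0.93, and 12 of them fell at least 4-fold. These 36 took 2.38 ± 0.555% of the PanCK deep dermis total at 0 h, 1.51 ± 0.0288% at 6 h and 0.703 ± 0.183% at 24 h (SD, n = 3 mice). The 104 members called in neither direction took 3.74 ± 0.264%, 3.73 ± 0.576% and 4.25 ± 0.475%, and their median log2 fold change was 0.06. The calls that split the members came from these same sums, so the shares and medians of both parts only describe that split. Without mouse 210, 18 were called lower and 2 higher, without mouse 219, 23 and 2, and limma on mean log values called 20 and 4.

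Which members fell there went with their 0 h position between the layers. Of the 43 members with a 0 h level lower in PanCK epidermis than in PanCK deep dermis, 26 were called lower in PanCK deep dermis at 24 h against 0 h. Of 70 members at 1 to 2 times the deep dermal level 8 were called lower and 1 higher, and of 31 tested members at 2 to 3 times, 2 lower and 3 higher. The ratio and this contrast share the 0 h deep dermal level, so that split is partly built in. The change from 6 to 24 h compares neither value of the ratio, although the 0 h deep dermal sums enter its fit and filter. It gave 16 lower and 0 higher of 43, 3 and 1 of 70, and 0 and 3 of 31, with median log2 fold changes of -0.74, -0.07 and 0.36. In all, 19 members fell and 4 rose from 6 to 24 h, against 6.13% and 2.54% of all tested probes. Among the other eligible probes with a ratio below 1, 19 of 118 fell and 0 rose from 6 to 24 h, with a median of -0.18, so a fall at that position was not confined to members; the difference between the lists was not tested. Without mouse 210, whose PanCK deep dermis sums were the deepest at each time, 0 members were called lower from 6 to 24 h, and the median of the 43 was -0.52.

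**Figure D3:**
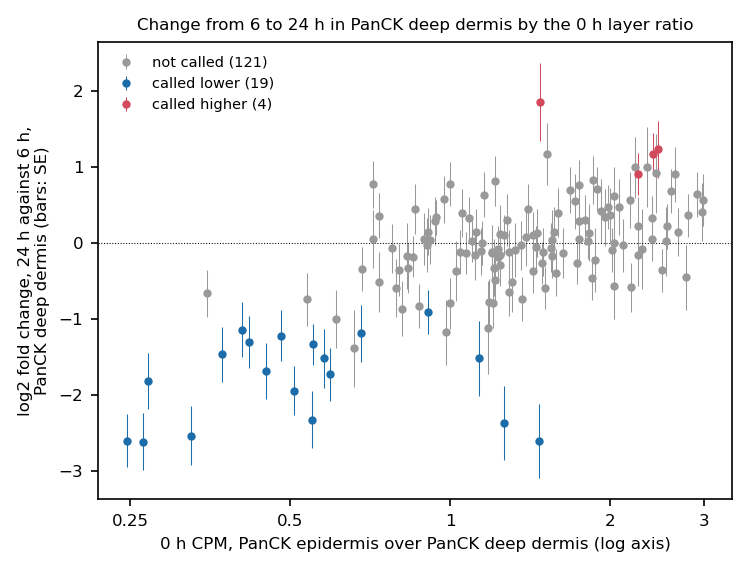
Log2 fold change from 6 to 24 h in PanCK deep dermis (y axis, bars are standard errors) for 144 tested members against their 0 h CPM ratio of PanCK epidermis to PanCK deep dermis (x axis, log scale). Blue points were called lower (19), red higher (4) and grey neither (121). The blue points lie mostly at the left, where 16 of the 43 members with a ratio below 1 are blue, and the 4 red points lie above a ratio of 1.

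The strongest falls in PanCK deep dermis, RTS0066290 and RTS0073465, started far above their level in PanCK epidermis and ended near it. RTS0066290 stood at 886, 878 and 1668 CPM in mice 208, 210 and 219 at 0 h, at 628, 463 and 605 CPM at 6 h and at 153, 73.6 and 91.4 CPM at 24 h. Its PanCK epidermis levels were 282 ± 151 CPM at 0 h and 94.6 ± 34.2 CPM at 24 h. RTS0073465 stood at 518, 650 and 1384 CPM, at 496, 338 and 464 CPM and at 51.0, 68.3 and 102 CPM in PanCK deep dermis, and at 225 ± 94.3 and 78.2 ± 33.1 CPM in PanCK epidermis at 0 and 24 h. Neither overlapped between 0 and 24 h in PanCK deep dermis. The log2 fold changes from 0 to 24 h were -3.63 ± 0.34 and -3.55 ± 0.37, with adjusted p-values of 3.32e-08 and 1.29e-07 in edgeR's quasi-likelihood test, n = 3. Both were called under all 12 alternatives, with the highest adjusted p at 0.00185 and 0.00225. Of the 3 members called lower at 6 h against 0 h in PanCK deep dermis, where 1.64% of tested probes were lower and 1.37% higher, RTS0066290 was one and no member was higher, with a log2 fold change of -1.03 ± 0.28; DESeq2 called 2 members lower in that comparison and limma 0.

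The risers RTS0063194 and RTS0070128 went opposite ways in the epithelium of the 2 layers. RTS0063194 was at 219, 254 and 334 CPM in PanCK deep dermis at 0 h, at 365, 376 and 489 CPM at 6 h and at 663, 941 and 833 CPM at 24 h. In PanCK epidermis it was at 549, 604 and 671 CPM at 0 h and at 219, 107 and 242 CPM at 24 h. RTS0070128 was at 491, 507 and 517 CPM in PanCK deep dermis at 0 h and at 1004, 1283 and 1117 CPM at 24 h, and in PanCK epidermis at 1292, 1382 and 971 CPM and at 277, 367 and 332 CPM. The 0 h and 24 h values overlapped in neither compartment, which in PanCK epidermis held for all 148 members. In PanCK deep dermis the log2 fold changes were 1.45 ± 0.29 and 0.99 ± 0.27, adjusted p = 0.000522 and 0.00965 in edgeR's test. Over the alternatives these ran from 0.000166 to 0.0395 and from 0.00416 to 0.11. Both fell in CD45 epidermis, by 0.94 and 1.09 on the log2 scale.

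In CD45 deep dermis 3 of 91 tested members fell by 24 h and 0 rose, where 4.56% of 878 tested probes were lower and 1.59% higher. At an unadjusted p under 0.05, 13 members were lower and 5 higher; DESeq2 called 3 and 0, limma 1 and 0. The median CPM ratio of 24 h to 0 h was 1.06 over the 148 members, with 22 lower and 19 higher in every mouse. Of the 344 other eligible probes 26 were lower and 70 higher in every mouse, and of all probes 9.41% and 13.6%. Without mouse 210 the count was 1, without the segments under 20000 counts it was 0, and scaled to the floor probes it was 6. At 6 h against 0 h no member was called by edgeR, DESeq2 or limma, with 7 lower and 1 higher at an unadjusted p under 0.05 in edgeR. From 6 to 24 h edgeR and DESeq2 called 0 and limma 1 lower, with 6 lower and 5 higher at an unadjusted p under 0.05 in edgeR. All tested probes gave 0.342% lower and 0.0% higher in the first of these comparisons, and 0.0% and 0.114% in the second.

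The leading fall in CD45 deep dermis, RTS0080776, had a lower mean at 24 h than at 0 h in every compartment, though in adipose the times overlapped. In CD45 deep dermis it was at 1473, 1811 and 2216 CPM in mice 208, 210 and 219 at 0 h and at 548, 325 and 342 CPM at 24 h, a log2 fold change of -2.30 ± 0.35 with adjusted p = 0.00283 in edgeR's fit (5.76e-05 to 0.159 over the alternatives). In PanCK deep dermis it was at 3414, 4552 and 6372 CPM at 0 h and at 1633, 1062 and 1503 CPM at 24 h. Its log2 fold change was -1.90 there and -2.90 in CD45 epidermis, where it went from 2186 ± 416 to 202 ± 38.8 CPM. In adipose its change of -0.99 ± 0.27 was not called, with an adjusted p of 0.0681. RTS0068234, the other named fall in this compartment, went from 508, 501 and 369 CPM to 274, 77.5 and 97.8 CPM, a log2 fold change of -1.86 ± 0.42 with an adjusted p of 0.0276 (0.0138 to 0.375 over the alternatives, and no longer called in 5 of 12). RTS0064745 was also called there, at -2.17 ± 0.50. The positive changes with the smallest p, RTS0063194 at 0.99 ± 0.37 and RTS0061520 at 0.70 ± 0.28, were not called.

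CD45 adipose gave 1 call among 69 tested members at 24 h against 0 h, RTS0068234, where 1.07% of 839 tested probes were lower and 1.31% higher; 3 members were lower and 0 higher at an unadjusted p under 0.05. RTS0068234 was at 611, 449 and 709 CPM in mice 208, 210 and 219 at 0 h and at 270, 126 and 282 CPM at 24 h, and did not overlap between the times. Its log2 fold change, -1.32 ± 0.34, had an adjusted p of 0.0467 in edgeR's test. Over the alternatives the adjusted p ran from 0.0172 to 1.0, and the call was lost in 7 of 12, among them DESeq2's test, limma and the fits without mouse 208 or mouse 210, which called 0 members. Without mouse 219, 3 members were called. RTS0061776, the next by p, was at -1.32 ± 0.36 and was not called, and nor were the positive changes RTS0062227 at 0.65 ± 0.41 and RTS0070128 at 0.65 ± 0.46. At 6 h against 0 h, and at 24 h against 6 h, edgeR, DESeq2 and limma called 0 members in adipose, where 0.0% and 0.119% of tested probes were lower. At an unadjusted p under 0.05 in edgeR, 1 was lower and 0 higher in the former, and 3 lower and 4 higher in the latter. Over the 148 members the median CPM ratio of 24 h to 0 h was 0.933.

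The change itself was compared between the CD45 segments of the 2 layers, in 1 fit with the biopsy as a block. Of 132 tested members 18 had a lower change from 0 to 24 h in CD45 epidermis than in CD45 deep dermis and 0 a higher one, where 2.83% of 1911 tested probes were called in the first direction and 4.24% in the second. At an unadjusted p under 0.05 the counts were 46 and 1; DESeq2 called 14 and 0, and limma 12 and 0. Of 331 tested other eligible probes 18 were lower and 23 higher. The median log2 difference was -0.79 for the members and 0.08 for all tested probes. The filter of this fit ran over both compartments, so members scarce in CD45 deep dermis could pass it through CD45 epidermis. In the fit of CD45 deep dermis alone 91 members passed. Of the 90 members that passed in each compartment's own fit, the difference was called for 17. Leaving out mouse 210 gave 3 members, mouse 219 gave 1 and the segments under 20000 counts gave 7. Scaled to the floor probes, which moved the median of all tested probes from 0.08 to -0.70, 54 were called.

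Among these differences RTS0073782 led. In CD45 epidermis it stood at 514, 363 and 494 CPM in mice 208, 210 and 219 at 0 h, at 380, 515 and 475 CPM at 6 h and at 25.7, 45.0 and 15.3 CPM at 24 h. In CD45 deep dermis it stood at 111, 181 and 170 CPM at 0 h and at 257, 217 and 611 CPM at 24 h. The difference was -3.94 ± 0.59 on the log2 scale, adjusted p = 0.000128 in edgeR's quasi-likelihood test (1.58e-08 to 0.0249 over the alternatives). RTS0075777 followed, at 954, 844 and 694 CPM in CD45 epidermis at 0 h and at 129, 128 and 153 CPM at 24 h. In CD45 deep dermis it was at 546 ± 149 and 614 ± 169 CPM, and the difference was -2.04 ± 0.42, adjusted p = 0.00317 (7.79e-05 to 0.0731 over the alternatives). The positive differences with the smallest p, RTS0073465 at 2.50 ± 1.08 and RTS0065761 at 0.95 ± 0.83, were not called, and limma turned the second to -0.61.

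**Figure D4:**
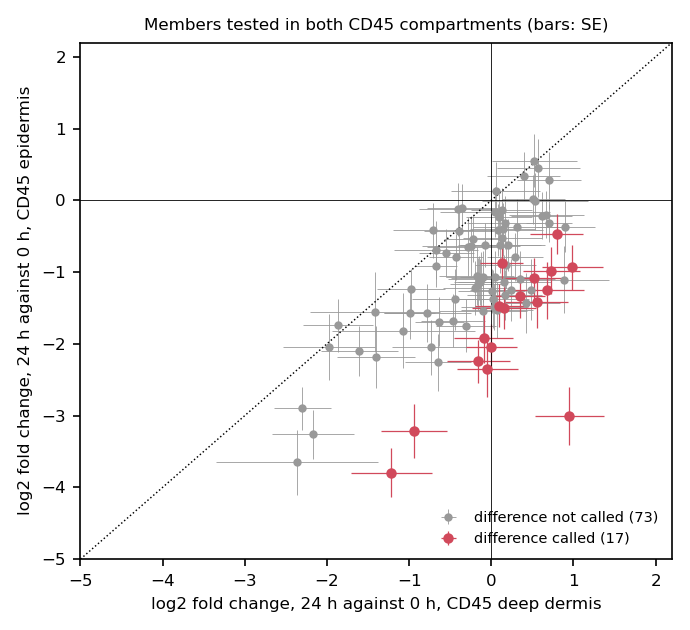
Log2 fold change from 0 to 24 h in CD45 epidermis (y axis) against CD45 deep dermis (x axis) for the 90 members tested in both, with standard errors as bars; the dotted line marks equal change. Red points are the 17 of these members whose difference was called. In CD45 epidermis 84 of the 90 points lie below the dotted line.

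Before exposure more members were called higher than lower in CD45 epidermis against CD45 deep dermis. The rule did not use CD45 counts. Its minimum 0 h level came from PanCK epidermis segments of the same regions, so this direction is not independent of the rule. At 0 h, 14 of 148 members were higher in CD45 epidermis than in CD45 deep dermis and 0 lower, where 3.22% of 1709 tested probes were higher and 4.15% lower. At an unadjusted p under 0.05, 33 were higher and 3 lower; DESeq2 called 10 and 0, and limma 2 and 0. The median log2 difference was 0.35, against 0.00 over all tested probes and 0.13 over the other eligible probes. Without mouse 208, 210 or 219 the count was 5, 3 and 3, without the segments under 20000 counts 7, and scaled to the floor probes 6. Of the 344 other eligible probes, 6 were higher and 3 lower in the main fit. The filter of this fit ran over all compartments at once. Members scarce in CD45 deep dermis could pass it through PanCK epidermis, where the rule set a minimum 0 h level. In the 24 h against 0 h fit of CD45 deep dermis alone, 91 members passed. RTS0065617, with 1 count in each 0 h sum of CD45 deep dermis against 14, 34 and 10 counts in CD45 epidermis, and RTS0063697, at 569 ± 81.1 CPM against 209 ± 54.9 CPM, had the smallest p. RTS0068234 and RTS0064863 had the smallest p in the other direction and were not called.

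Over all compartments, the median 0 h level of the 148 members was 282 CPM in PanCK epidermis, 245 CPM in PanCK deep dermis, 202 CPM in CD45 epidermis, 144 CPM in CD45 deep dermis and 128 CPM in adipose. The highest 0 h level lay in PanCK epidermis for 88 members, in PanCK deep dermis for 38, in adipose for 17, in CD45 epidermis for 5 and in CD45 deep dermis for 0. By 24 h the medians were 92.2, 211, 67.3, 155 and 127 CPM in the same order of compartments. The epidermal compartments, which had held the highest and the middle of the 5 medians, then held the lower 2. The rule used the PanCK epidermis levels at 0 and 24 h, so that compartment's place in these counts and ranks is a description.

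The falls of CD45 epidermis and PanCK deep dermis overlapped in part. Among the 129 members tested in both, 68 fell in CD45 epidermis (52.7%) and 27 in PanCK deep dermis, and 12 fell in both, which is 17.6% of the first list and 44.4% of the second. Of all 1016 probes tested in both, 219 and 125 fell and 42 fell in both, 19.2% and 33.6% of these lists. Of the 98 tested in CD45 epidermis that were called in neither direction in PanCK deep dermis, 54 fell in CD45 epidermis. Of the 145 members tested in at least 1 of the 4 other compartments, 93 were called lower in at least 1 (64.1%), against 112 of 341 other eligible probes and 17.7% of all 3070 probes tested. In all 4 compartments 66 members were tested, and 3 were tested in none.

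**Figure D5:**
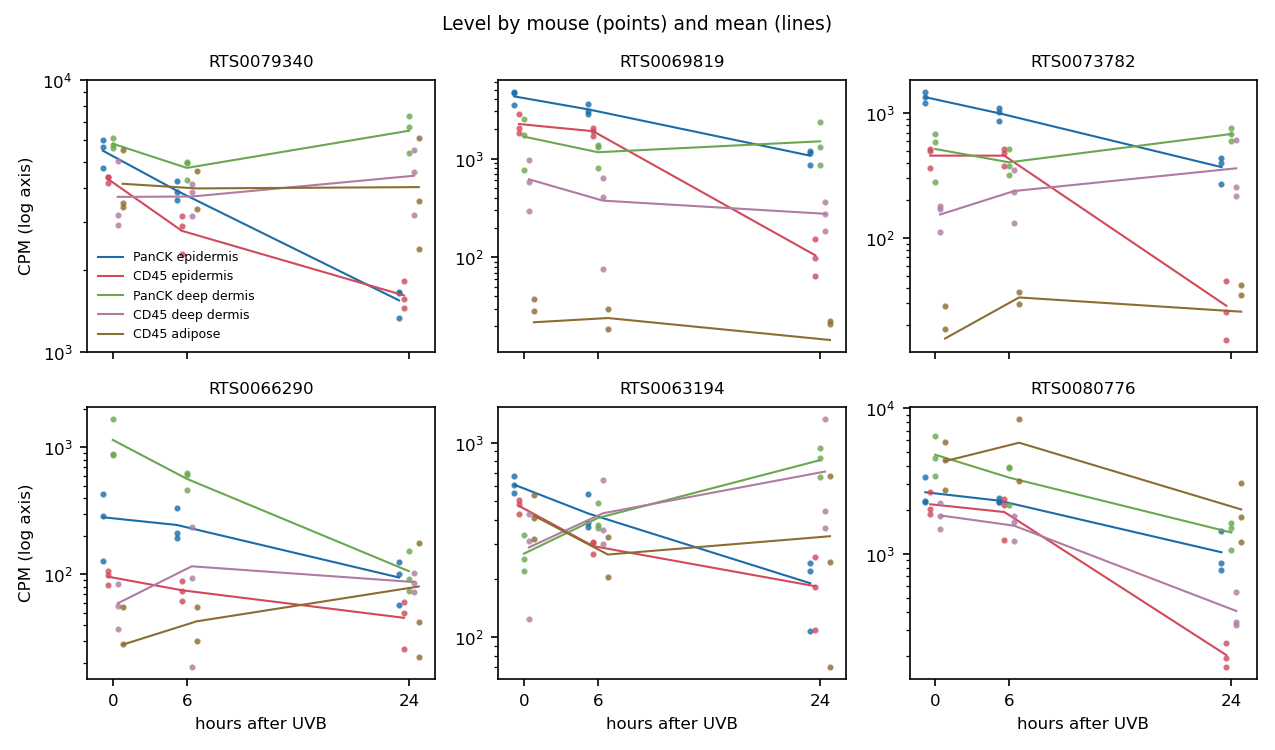
CPM (y axis, log scale, own range in each panel) of 6 named members at 0, 6 and 24 h (x axis), with a point for each mouse and lines through the means of the 5 compartments; values at 0, all in adipose, are not drawn. RTS0079340, RTS0069819 and RTS0073782 end below their own 0 h means in both epidermal compartments. RTS0066290 falls most in PanCK deep dermis, RTS0063194 rises there, and RTS0080776 ends below its 0 h mean in all 5.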

How the data were processed

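GeoMx counts were taken from 85 skin segments and a no template control, whose 19 counts, 0 of them on members, entered no fit. Each deposited value is a count, a whole number for a probe identifier in a segment; per the file headers, GeoMx NGS Pipeline 2.3.3.10 made these counts for the authors. No aligner, probe panel or normalization is recorded in the sources used here. In 18 segments and the control the same deposited counts sit under a column name that header lines share, so their unit was entered as other.

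The segments of 1 mouse, compartment and time were added up. Levels are CPM of these sums, with the SD over mice. Each compartment was fitted over its 3 times with edgeR 4.0.16 under R 4.3.3 and a mouse block, with TMM scaling, filterByExpr with the design (minimum count 10) and the quasi-likelihood test, adjusted over all tested probes by the Benjamini-Hochberg method and called under 0.05. Standard errors were taken as the fold change over the root of F. The 0 h levels were compared in 1 fit of all compartments. Mice were paired by the number in the labels, which recurs at 0, 6 and 24 h; serial biopsy of 1 animal is not spelled out. Deviations from group means correlated within a mouse across times with a median r of 0.00475 in PanCK epidermis, 0.0462 in PanCK deep dermis, -0.0207 in CD45 epidermis, -0.00607 in CD45 deep dermis and 0.0615 in adipose. P-values rest on the spread of the compared differences over 3 mice that is left after the block. The estimate of that spread borrows from all tested probes. No 2 segments held identical counts.

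Members, reference list, tests and the rule for named probes were chosen with earlier results of these data known. Named are the 2 members highest at 0 h in PanCK epidermis, the 2 lower and 2 higher with the smallest p in each 24 h against 0 h comparison outside PanCK epidermis, in the difference of the CD45 layers and at 0 h, and the 2 probes on each side of the 24 h limit. RTS0063606 and RTS0064745 in CD45 deep dermis were named after their values were seen. The alternatives were DESeq2's size factors, upper quartile scaling, scaling to the 5000 floor probes (those with the lowest mean share over the deeper compartments), no filter, DESeq2 1.42.0 as the test, limma 3.58.1 on mean log2(CPM + 1) over segments, omission of the 12 segments under 20000 counts, no block, and omission of each mouse. A filter by time group and subtraction of the floor mean were added after seeing the data. Fits were tested on simulated data; pandas 2.3.3 and matplotlib 3.10.9 served for sums and plots.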

Additional observations from a re-analysis of the deposited data

Results flagged for a closer look

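The difference between the layers in CD45 segments met the condition for a closer look, since the test was of the difference itself: 18 members had a lower change from 0 to 24 h in CD45 epidermis than in CD45 deep dermis by the quasi-likelihood F test of edgeR (adjusted p under 0.05), and 0 a higher one. The median log2 difference over the 132 tested members was -0.79, and 114 of them were below 0. Members scarce in CD45 deep dermis could pass the filter of this fit through CD45 epidermis, and 91 passed in CD45 deep dermis alone. Of all 1911 tested probes, 2.83% were called lower and 4.24% higher, and 893 were below 0. Of 331 tested other eligible probes, 18 were called lower and 23 higher, and 219 were below 0. Beside this difference, the floor share went from 12.9% to 16.6% of counts in CD45 epidermis and from 10.8% to 12.2% in CD45 deep dermis. The part of the floor share in the difference was not tested. Groups of 3 mice were too small for the check on single outlying samples.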

How the results depend on the processing

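Called members stand as counts. Scaling to the floor probes gave 122 lower in CD45 epidermis (69 in the report), 6 lower in CD45 deep dermis, 0 lower in adipose, 91 lower from 6 to 24 h in CD45 epidermis, 54 with a lower change in CD45 epidermis than CD45 deep dermis, 6 higher at 0 h in CD45 epidermis than CD45 deep dermis, and a membership of 260 probes, 60 of them among the 148. Without the filter the counts were 1 lower in CD45 deep dermis, 0 lower in adipose and 12 lower from 6 to 24 h in PanCK deep dermis. DESeq2's test gave 2 higher in PanCK deep dermis, 0 lower in adipose and 12 lower from 6 to 24 h in PanCK deep dermis. The limma fit gave 20 lower in PanCK deep dermis, 1 lower in CD45 deep dermis, 0 lower in adipose, 7 lower from 6 to 24 h in PanCK deep dermis, 0 lower at 6 h in CD45 epidermis and 2 higher at 0 h. Without segments under 20000 counts, 1 was higher in CD45 epidermis, 0 lower in CD45 deep dermis, 7 had a lower change in CD45 epidermis than CD45 deep dermis and 7 were higher at 0 h. With no replicate block, 1 was higher in CD45 epidermis and 0 lower in adipose; the block moved no other count by over 1.5 times, with 73 lower in CD45 epidermis and 34 in PanCK deep dermis. The filter by time group gave 1 higher in CD45 epidermis. The cause of these shifts was not tested. DESeq2's size factors and upper quartile scaling moved no count by over 1.5 times.

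Leaving out each mouse in turn gave 33 to 64 lower and 0 to 2 higher in CD45 epidermis, 18 to 39 lower and 2 to 3 higher in PanCK deep dermis, 1 to 3 lower in CD45 deep dermis and 0 to 3 lower in adipose. It gave 0 to 18 lower from 6 to 24 h in PanCK deep dermis, 16 to 42 lower from 6 to 24 h and 0 to 1 lower at 6 h in CD45 epidermis, 1 to 14 with a lower change in CD45 epidermis than CD45 deep dermis, and 3 to 5 higher and 0 to 1 lower at 0 h. With fewer mice the fits have fewer residual degrees of freedom. Membership without mouse 208, 210 or 219 was 145, 152 and 153 probes, of which 97, 107 and 99 were among the 148, and by the median over mice 162, of which 115 were. Of 277 values for the 24 results on single named probes, 250 kept their direction and side of the threshold, 17 lost the call, 6 gained it and 4, none of them called, turned: RTS0074527 in CD45 epidermis, 0.55 in the report, was -0.4222 scaled to the floor probes, -0.382 without the filter and -0.2078 by limma, and RTS0065761 in the difference of the CD45 layers, 0.95, was -0.6107 by limma. The filter on low counts removed 57 and 79 of the 148 members in CD45 deep dermis and adipose, against 4 in PanCK deep dermis; how far depth or the members' lower levels there set this was not tested.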
